A study of Mus musculus with 6 samples.

Results

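The enzymes that release, phosphorylate, degrade and reacylate sphingosine were followed in bulk RNA-seq of mDPCs, mouse dental papilla cells, from whose mesenchyme the dentin-forming odontoblasts arise. The 10 genes were Acer2, Acer3, Asah1, Asah2, Sphk1, Sphk2, Sgpl1, Cers2, Cers5 and Cers6, found by their symbols among the 31613 genes of the table. They were chosen by a measured value of this same comparison, because Acer2 was evenly higher in the 3 Dmp1-Cre;Setd2fl/fl libraries, and the other 9 genes came with it as enzymes of the same pathway. The values of Acer2 are therefore given as a description and support nothing, and wherever it stands in a count of called genes that count follows from the choice. All 10 genes passed the filter on low counts and were among the 16519 genes tested. The cells came from C57BL/6J mice at postnatal day 6. The methods name the first mandibular molars for embryonic mDPCs and no tooth for this RNA-seq. There were 3 libraries from Dmp1-Cre;Setd2fl/fl mice, which carry 2 floxed Setd2 alleles and a Cre driven by the Dmp1 promoter, and 3 control libraries. The methods give Setd2fl/fl littermates without Cre as the controls, while the sample labels call them wild type. Each library was a pool of RNA from 3 biological replicates. Cre from the Dmp1 promoter acts in odontoblasts, whereas the libraries hold the RNA of all cells collected, so a deletion limited to odontoblasts is measured here in mixed tissue.

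Ceramide is the shared core of the sphingolipids, the membrane lipids built on a sphingoid base. Ceramidases cut it into a fatty acid and sphingosine, and ceramide synthases join sphingosine to a fatty acid again. Sphingosine kinases turn sphingosine into sphingosine-1-phosphate, a signal that acts through cell surface receptors and is destroyed by sphingosine-1-phosphate lyase. In mouse teeth and bones, the sphingomyelinase Smpd3, which releases ceramide from sphingomyelin, is known to be needed for normal mineralisation.

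Library totals were 18557647 to 19164358 counts in Dmp1-Cre;Setd2fl/fl and 18894240 to 19210750 counts in controls, so depth was even between the groups. Values are CPM, counts scaled to library size with the trimmed mean of M-values (TMM), unless stated otherwise. Setd2 itself was at 102, 98.5 and 96.0 CPM in Dmp1-Cre;Setd2fl/fl and at 98.0, 96.5 and 92.0 CPM in controls, a count over the whole gene and all cells that does not check the genotype. The summed level of 5 odontoblast markers (Dspp, Dmp1, Phex, Nes, Col1a1) was 5790, 3920 and 36400 CPM in Dmp1-Cre;Setd2fl/fl replicates 1, 2 and 3 and 70700, 73100 and 80600 CPM in controls. Most of this sum was Col1a1, at 4850, 3270 and 30000 CPM in Dmp1-Cre;Setd2fl/fl and 54200, 56400 and 64900 CPM in controls. Each of the 5 markers was lower in every Dmp1-Cre;Setd2fl/fl library than in any control. Dspp was at 436, 215 and 5300 CPM in Dmp1-Cre;Setd2fl/fl and at 14200, 14400 and 13900 CPM in controls. In such bulk samples, fewer odontoblasts and less RNA per odontoblast cannot be told apart. Replicate 3 of both groups stood apart from replicates 1 and 2, with summed tooth epithelium markers of 49200 CPM in Dmp1-Cre;Setd2fl/fl and 29700 CPM in control, against 2030 to 6940 CPM in the other Dmp1-Cre;Setd2fl/fl libraries and 2520 to 7090 CPM in the other controls. Some values without replicate 3 are given below.

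Acer2 encodes the alkaline ceramidase of the Golgi, and Acer3 the alkaline ceramidase of the endoplasmic reticulum and Golgi that acts on unsaturated long-chain ceramides. Their RefSeq promoters (GRCm38.p6, 300 bases across the start) are shown because these are the 2 alkaline ceramidases measured, and Acer2 is the gene the list was chosen for. Capitals mark the GC box GGGCGG on either strand, and both sequences are read along the strand of the gene.
Acer2, chr4:86874164-86874463, plus strand: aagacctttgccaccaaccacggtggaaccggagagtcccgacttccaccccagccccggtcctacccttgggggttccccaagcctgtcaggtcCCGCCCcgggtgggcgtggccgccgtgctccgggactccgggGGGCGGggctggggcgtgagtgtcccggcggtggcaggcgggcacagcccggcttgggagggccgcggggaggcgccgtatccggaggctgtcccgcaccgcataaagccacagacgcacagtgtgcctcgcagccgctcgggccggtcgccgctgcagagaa
Acer3, chr7:98309493-98309792, minus strand: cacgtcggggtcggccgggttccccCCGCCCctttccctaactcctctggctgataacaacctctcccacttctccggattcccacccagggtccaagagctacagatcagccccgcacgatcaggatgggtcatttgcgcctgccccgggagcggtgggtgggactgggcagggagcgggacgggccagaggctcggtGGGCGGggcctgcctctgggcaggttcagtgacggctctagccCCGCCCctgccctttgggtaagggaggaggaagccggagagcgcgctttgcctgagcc
The Acer2 promoter has 73.0% G or C, 31 CpG and 2 GC boxes. The Acer3 promoter has 68.0% G or C, 20 CpG and 3 GC boxes. Over 32544 RefSeq promoters of the same length the medians were 53.0% G or C and 7 CpG, and 35.9% held a GC box. Neither sequence holds the letters TATAAA or CCAAT on either strand, which 13.6% and 37.4% of all promoters hold. RefSeq gives Acer3 a second start, whose window (chr7:98321159-98321458) has 47.0% G or C, 2 CpG and no GC box. These matches describe the letters only.

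Acer2 (ENSMUSG00000038007, chromosome 4, 86874396 to 86934822, plus strand) was at 17.6, 20.2 and 19.3 CPM in Dmp1-Cre;Setd2fl/fl and at 11.0, 9.84 and 10.4 CPM in controls. All 3 Dmp1-Cre;Setd2fl/fl libraries lay above all 3 controls, and the spread within each group was small against the gap. The means were 19.0 ± 1.34 CPM in Dmp1-Cre;Setd2fl/fl and 10.4 ± 0.597 CPM in controls (SD, n = 3 libraries each), a ratio of 1.82 and a fitted log2 fold change of 0.87. These rest on 355 to 381 counts per library in Dmp1-Cre;Setd2fl/fl and 183 to 208 in controls. Within pairs of equal replicate number the log2 difference was 0.66, 1.03 and 0.89, and the evenness of these values over the libraries is what the gene was chosen for. The odontoblast marker sum was lower in every Dmp1-Cre;Setd2fl/fl library (3920 to 36400 CPM) than in any control (70700 to 80600 CPM), and its part in the level of Acer2 was not tested.

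Acer3 (ENSMUSG00000030760, chromosome 7, 98206389 to 98321208, minus strand) was at 22.6, 26.0 and 15.5 CPM in Dmp1-Cre;Setd2fl/fl and at 18.8, 16.4 and 15.7 CPM in controls. Replicates 1 and 2 of Dmp1-Cre;Setd2fl/fl lay above every control, whereas replicate 3 (15.5 CPM) was level with the lowest control (15.7 CPM). Its log2 fold change was 0.33 (standard error 0.21, 95% interval -0.16 to 0.82), which did not pass the test (adjusted p = 0.71, edgeR quasi-likelihood test with Benjamini-Hochberg adjustment over all genes tested). Leaving out 1 library at a time gave 0.16 (without Dmp1-Cre;Setd2fl/fl replicate 2) to 0.52 (without Dmp1-Cre;Setd2fl/fl replicate 3, adjusted p = 0.124), and without replicate 3 of both groups it was 0.47 (adjusted p = 0.0853).

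**Figure D1:**
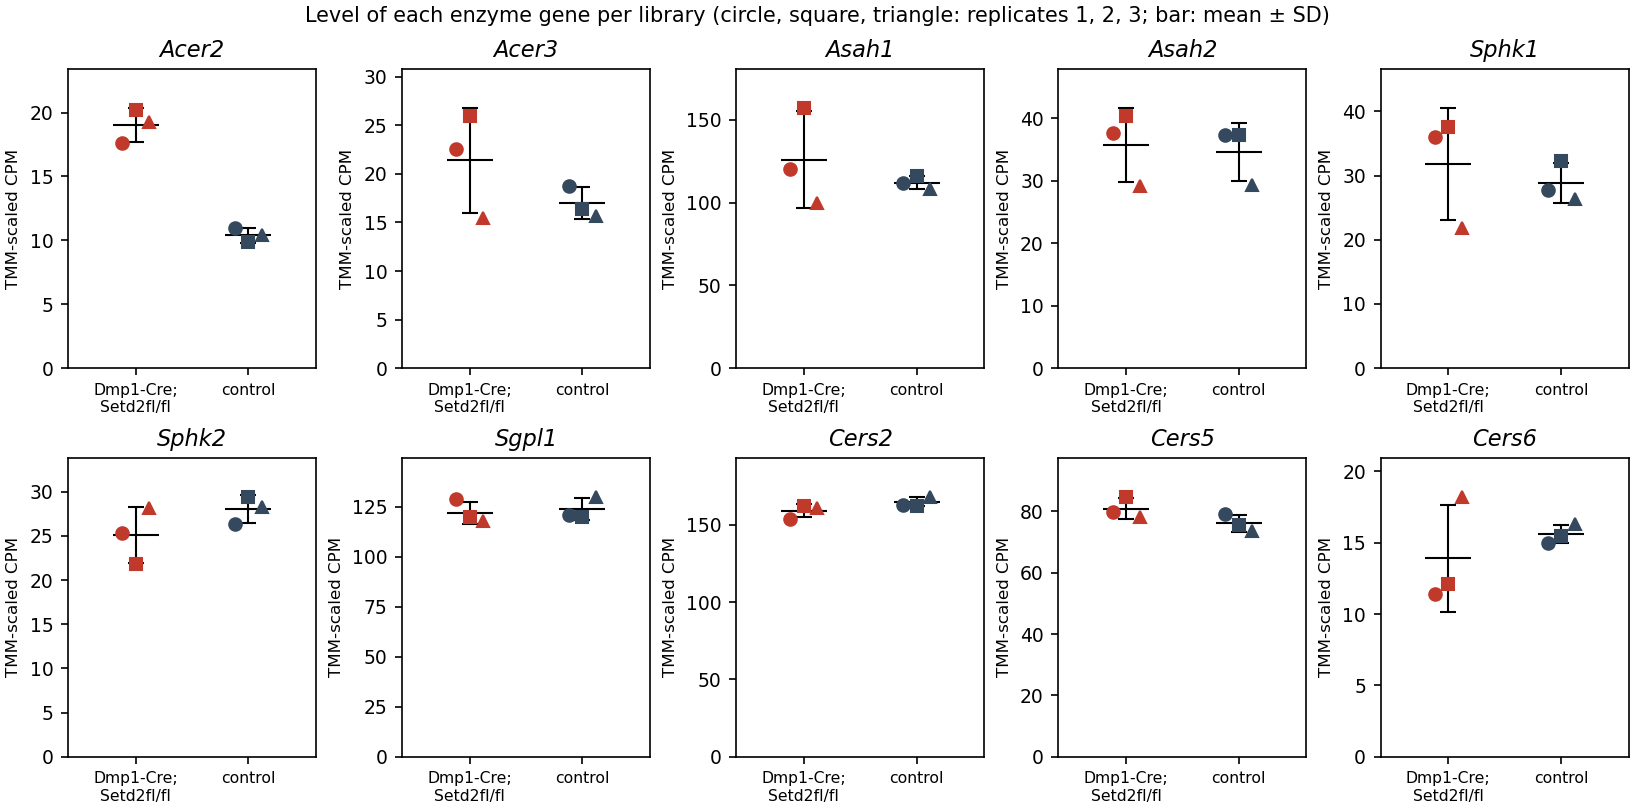
TMM-scaled CPM of each of the 10 enzyme genes (vertical axis, from 0) in Dmp1-Cre;Setd2fl/fl libraries (red, left) and control libraries (dark blue, right), with circles, squares and triangles for replicates 1, 2 and 3 and black bars for the mean ± SD (n = 3). The 2 groups are far apart for Acer2 (17.6 to 20.2 CPM in Dmp1-Cre;Setd2fl/fl and 9.84 to 11.0 CPM in controls), touch without overlapping for Cers2, and overlap for the other 8 genes.

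The remaining ceramidases work elsewhere in the cell. Asah1 (ENSMUSG00000031591, chromosome 8, 41340197 to 41374773, minus strand), the acid ceramidase of lysosomes whose loss causes Farber disease in humans, was at 120, 157 and 99.5 CPM in Dmp1-Cre;Setd2fl/fl and at 112, 116 and 108 CPM in controls. Its Dmp1-Cre;Setd2fl/fl libraries lay on both sides of the narrow control range, and the log2 fold change of 0.17 (standard error 0.17, 95% interval -0.24 to 0.57) did not pass the test (edgeR adjusted p = 0.806). Asah2 (ENSMUSG00000024887, chromosome 19, 31984654 to 32061469, minus strand), the neutral ceramidase of the cell surface, was at 37.6, 40.3 and 29.1 CPM in Dmp1-Cre;Setd2fl/fl and at 37.3, 37.3 and 29.3 CPM in controls. Replicate 3 was the lowest library of each group, the log2 fold change was 0.04 (standard error 0.17, 95% interval -0.35 to 0.44), and the groups did not differ beyond their spread (edgeR adjusted p = 0.957).

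The sphingosine kinases differ in where they act, Sphk1 mostly in the cytosol and at the plasma membrane and Sphk2 in the nucleus and other organelles. Sphk1 (ENSMUSG00000061878, chromosome 11, 116530925 to 116536674, plus strand) was at 36.0, 37.6 and 21.8 CPM in Dmp1-Cre;Setd2fl/fl and at 27.8, 32.3 and 26.3 CPM in controls. As with Acer3, replicates 1 and 2 of Dmp1-Cre;Setd2fl/fl were above every control. Replicate 3 was below every control, by a clearer margin than for Acer3. For Sphk1 the log2 fold change was 0.14 (standard error 0.22, 95% interval -0.37 to 0.66, edgeR adjusted p = 0.878), and with 1 library left out it ran from 0.01 (without Dmp1-Cre;Setd2fl/fl replicate 2) to 0.35 (without Dmp1-Cre;Setd2fl/fl replicate 3, adjusted p = 0.202). Sphk2 (ENSMUSG00000057342, chromosome 7, 45709467 to 45718002, minus strand) was at 25.3, 21.8 and 28.1 CPM in Dmp1-Cre;Setd2fl/fl and at 26.3, 29.4 and 28.3 CPM in controls. Replicate 3 lay within the control range and the other Dmp1-Cre;Setd2fl/fl libraries below it, at a log2 fold change of -0.16 (standard error 0.13, 95% interval -0.48 to 0.16, edgeR adjusted p = 0.76). The Sphk2 values are uncertain, because the gene overlaps Dbp and the ribosomal protein gene Rpl18 on the opposite strand. Reads were counted without strand, and Rpl18 had 13801 to 16757 counts per library in Dmp1-Cre;Setd2fl/fl and 11278 to 12676 in controls, while Sphk2 had 411 to 528 in Dmp1-Cre;Setd2fl/fl and 495 to 558 in controls.

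Sgpl1 (ENSMUSG00000020097, chromosome 10, 61098642 to 61147703, minus strand), the lyase that removes sphingosine-1-phosphate for good, was at 129, 120 and 118 CPM in Dmp1-Cre;Setd2fl/fl and at 121, 120 and 130 CPM in controls. The groups covered the same range. The log2 fold change was -0.02 (standard error 0.10, 95% interval -0.24 to 0.21, edgeR adjusted p = 0.976).

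The ceramide synthases are set apart by the acyl chain they attach. Cers2 (ENSMUSG00000015714, chromosome 3, 95314791 to 95323599, plus strand), which makes ceramides with very long chains, was at 154, 162 and 161 CPM in Dmp1-Cre;Setd2fl/fl and at 163, 162 and 168 CPM in controls. Every Dmp1-Cre;Setd2fl/fl library was below every control, by a margin that vanishes on rounding, at a log2 fold change of -0.05 (standard error 0.09, 95% interval -0.26 to 0.17, edgeR adjusted p = 0.903). Cers5 (ENSMUSG00000023021, chromosome 15, 99734881 to 99772885, minus strand), which prefers palmitoyl chains, was at 79.8, 84.7 and 78.1 CPM in Dmp1-Cre;Setd2fl/fl and at 79.2, 75.7 and 73.7 CPM in controls. These ranges overlapped at the top control, at a log2 fold change of 0.09 (standard error 0.09, 95% interval -0.13 to 0.30, edgeR adjusted p = 0.82). Cers6 (ENSMUSG00000027035, chromosome 2, 68861441 to 69114282, plus strand), the other synthase of palmitoyl ceramide, was at 11.4, 12.1 and 18.2 CPM in Dmp1-Cre;Setd2fl/fl and at 15.0, 15.5 and 16.3 CPM in controls. Replicates 1 and 2 of Dmp1-Cre;Setd2fl/fl were below every control and replicate 3 above every control, the mirror image of Sphk1. For Cers6 the log2 fold change was -0.17 (standard error 0.20, 95% interval -0.65 to 0.32, edgeR adjusted p = 0.843), and with 1 library left out it ran from -0.41 (without Dmp1-Cre;Setd2fl/fl replicate 3, adjusted p = 0.192) to -0.04 (without Dmp1-Cre;Setd2fl/fl replicate 1). Cers2 and Setdb1 meet at their ends on opposite strands, so a few reads there cannot be assigned.

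By the thresholds of the study (unadjusted p under 0.05, log2 fold change 0.58 or more in either direction), 1 of the 10 genes was called higher and 0 were called lower, against 1.10% of all 16519 genes tested called higher and 2.71% called lower. The 1 gene is Acer2, for which the list was chosen, so nothing is read from this count. Of the other 9 genes, 0 passed these thresholds in edgeR or under any of 13 alternatives. At an unadjusted p under 0.05, 0 of the 9 passed in edgeR and in DESeq2, where 7.58% and 7.85% of all genes passed. In limma voom 2 of the 9 passed, against 26.9% of all genes. Without Dmp1-Cre;Setd2fl/fl replicate 3, 3 of the 9 passed (Acer3, Sphk1 and Cers6), against 21.0% of all genes. Shares near those of all genes are no result about the 9 genes. With p adjusted over the table, edgeR called 0% of all genes higher and 0% lower, although 523 were higher and 729 lower at an unadjusted p under 0.05 and DESeq2 called 24 higher and 117 lower. With the replicate number as a block, 0.176% of all genes were called higher and 0.799% lower at an adjusted p under 0.05, and again 0 of the 9 genes were. The groups did not overlap, with Dmp1-Cre;Setd2fl/fl higher, in 1 of the 10 genes (Acer2) and in 7.26% of all genes. With Dmp1-Cre;Setd2fl/fl lower, they did not overlap in 1 of the 10 genes (Cers2) and in 7.98% of all genes. The 9 genes had a median of 0.04 on the log2 scale, against 0.02 over all genes tested.

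**Figure D2:**
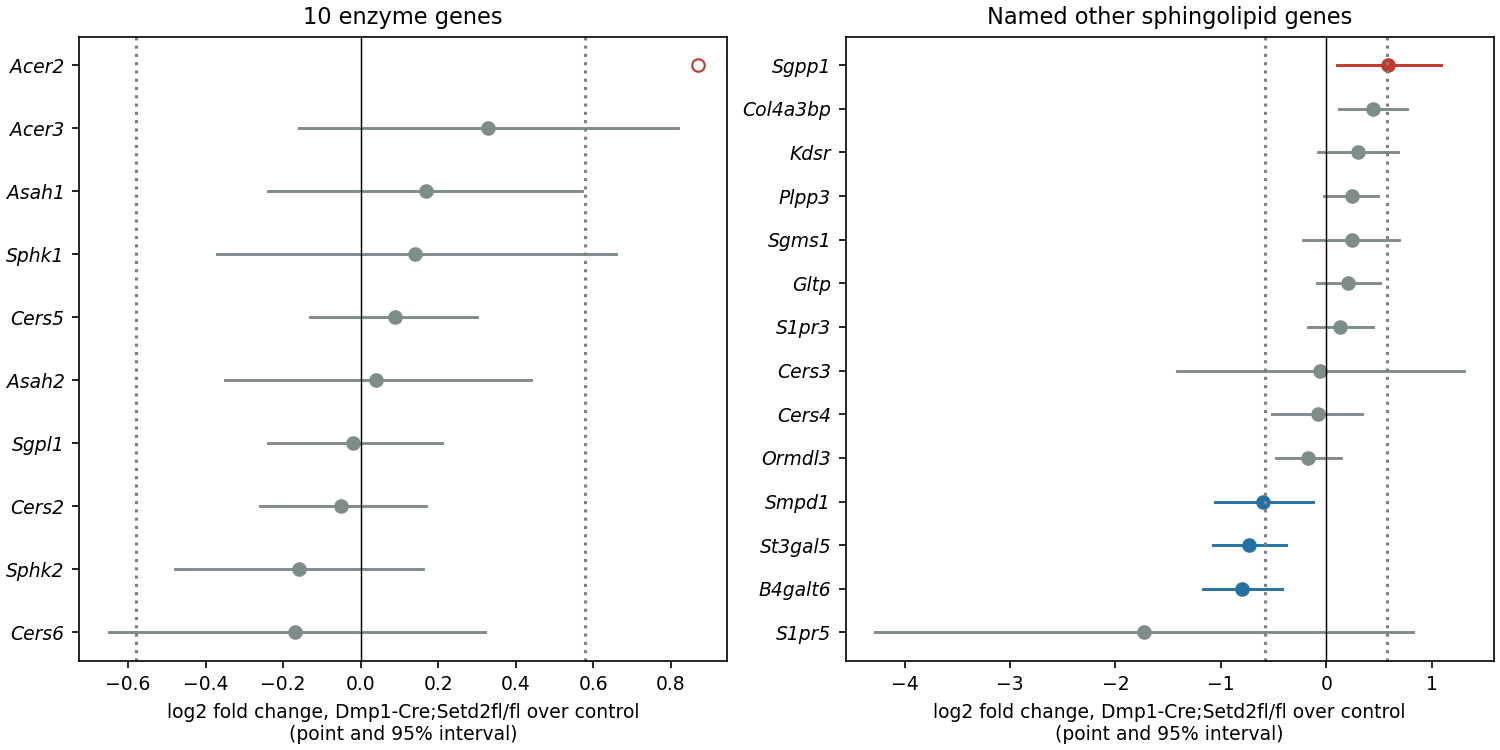
Fitted log2 fold change of Dmp1-Cre;Setd2fl/fl over control (horizontal axis, points, with 95% intervals as bars) for the 10 enzyme genes on the left and for the 14 named other sphingolipid genes on the right, with dotted lines at the study's threshold of 0.58 in either direction. Red and blue mark genes called higher and lower by the study's thresholds, grey the rest, and Acer2 (0.87) is an open point with no interval because it was chosen for this value. The intervals of the other 9 enzyme genes all include 0.

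The other 9 enzymes differed in how much they varied among the Dmp1-Cre;Setd2fl/fl libraries. The coefficient of variation of CPM was 25.1% for Acer3, 23.2% for Asah1, 27.3% for Sphk1 and 26.8% for Cers6 in Dmp1-Cre;Setd2fl/fl, against 9.65%, 3.65%, 10.8% and 4.06% in controls. Sgpl1, Cers2 and Cers5 were at 2.69% to 4.48% in Dmp1-Cre;Setd2fl/fl and 1.76% to 4.55% in controls. Asah2 and Sphk2 lay between in Dmp1-Cre;Setd2fl/fl, at 16.5% and 12.6%, against 13.4% and 5.68% in controls. The common dispersion over all genes tested is a spread of 25.3%, taken over both groups and so not matched to a value within either group. Summed over genes, library pairs also differed more in Dmp1-Cre;Setd2fl/fl than in controls. For pairs 1 and 2, 1 and 3, and 2 and 3, chi-square per degree of freedom was 33.6, 130.9 and 189.9 in Dmp1-Cre;Setd2fl/fl. In controls it was 6.174, 52.25 and 60.1, so a wider spread is not particular to these enzymes. Acer2, chosen for its even level, was at 7.05% in Dmp1-Cre;Setd2fl/fl and 5.74% in controls, and is not compared with the others. Sphk2 was lowest in Dmp1-Cre;Setd2fl/fl replicate 2 and highest in replicate 3. Acer3, Asah1, Asah2 and Sphk1 were each highest in Dmp1-Cre;Setd2fl/fl replicate 2 and lowest in replicate 3. So was Cers5, within a narrower range (79.8, 84.7 and 78.1 CPM). The summed macrophage markers (Csf1r, Adgre1, Cd68, Ptprc, C1qa) were likewise highest in Dmp1-Cre;Setd2fl/fl replicate 2 and lowest in replicate 3. They were at 550, 586 and 296 CPM in Dmp1-Cre;Setd2fl/fl replicates 1, 2 and 3 and 440, 497 and 391 CPM in controls. Of these markers, Cd68 and Ptprc were highest in Dmp1-Cre;Setd2fl/fl replicate 1. The neutrophil marker sum (S100a8, S100a9, Ngp, Camp, Elane) was also highest in Dmp1-Cre;Setd2fl/fl replicate 2 and lowest in replicate 3. It was at 64.2, 130 and 3.75 CPM in Dmp1-Cre;Setd2fl/fl and 18.9, 10.4 and 2.89 CPM in controls. Elane was under 1 CPM in every library and was not tested. By the study's thresholds 0 of 5 macrophage markers and 2 of 4 tested neutrophil markers were called higher, and none of either list lower. Of all genes tested, 1.10% were called higher and 2.71% lower. The 2 neutrophil calls were Ngp and Camp, whose groups overlapped (edgeR adjusted p = 0.626 and 0.65). Their levels were low, at most 9.01 CPM for Ngp and 4.4 CPM for Camp. The summed dental mesenchyme markers (Msx1, Pax9, Lhx8, Barx1, Runx2) had the same extremes, at 752, 815 and 735 CPM in Dmp1-Cre;Setd2fl/fl. Of these markers only Msx1 itself had both extremes (354, 380 and 299 CPM). Pax9 and Lhx8 were highest in replicate 1, and Barx1 was lowest in replicate 1. Runx2 was lowest in replicate 2 and highest in replicate 3 (48.6, 45.0 and 66.7 CPM). The odontoblast sum (5790, 3920 and 36400 CPM) and the tooth epithelium sum (6940, 2030 and 49200 CPM) were likewise lowest in replicate 2 and highest in replicate 3. The part of any of these cells in the levels of Acer3, Asah1, Asah2, Sphk1 and Cers5 was not tested.

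**Figure D3:**
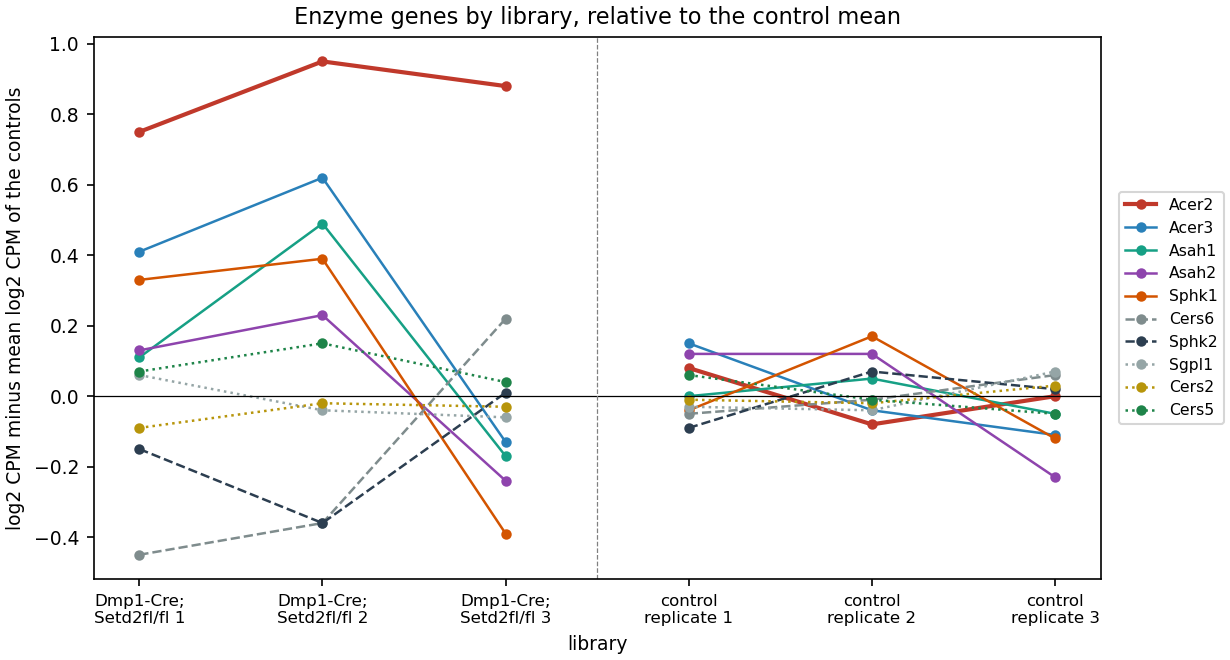
Log2 CPM of each enzyme gene minus its mean over the controls (vertical axis) in the 3 Dmp1-Cre;Setd2fl/fl libraries (left) and the 3 control libraries (right); lines only join the points of 1 gene. Acer2 (thick red) lies above 0 in every Dmp1-Cre;Setd2fl/fl library, whereas Acer3, Asah1, Asah2 and Sphk1 lie above 0 in replicates 1 and 2 and below 0 in replicate 3, and Cers6 does the reverse.

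Levels can be set beside each other between genes only per transcript length, here as reads per kilobase of the canonical transcript, scaled to library size (RPKM). On this scale Cers2 had the highest mean level of the 10 genes, 71.8 ± 1.93 in Dmp1-Cre;Setd2fl/fl and 74.3 ± 1.31 in controls (SD, n = 3 each, as for all levels here). Asah1 followed with 39.2 ± 9.10 in Dmp1-Cre;Setd2fl/fl and 34.9 ± 1.28 in controls, then Sgpl1 with 29.6 ± 1.32 in Dmp1-Cre;Setd2fl/fl and 29.9 ± 1.37 in controls. The ranges of Asah1 and Sgpl1 overlapped in Dmp1-Cre;Setd2fl/fl and not in controls. Cers5 was at 25.9 ± 1.09 in Dmp1-Cre;Setd2fl/fl and 24.4 ± 0.890 in controls, and a wide step separated it from the kinases. Sphk1 was at 8.43 ± 2.30 in Dmp1-Cre;Setd2fl/fl and 7.63 ± 0.821 in controls, and Sphk2 at 7.06 ± 0.895 in Dmp1-Cre;Setd2fl/fl and 7.89 ± 0.447 in controls. The order of the kinases differed between the groups, but their ranges overlapped in both, so no order can be given. Asah2 stood at 5.29 ± 0.874 in Dmp1-Cre;Setd2fl/fl and 5.13 ± 0.688 in controls, and Acer2 at 4.41 ± 0.312 in Dmp1-Cre;Setd2fl/fl and 2.42 ± 0.138 in controls. These ranges overlapped in Dmp1-Cre;Setd2fl/fl and were apart in controls, where Acer2 lay nearer to Cers6 (2.12 ± 0.0859) and Acer3 (1.50 ± 0.144). In Dmp1-Cre;Setd2fl/fl the lowest levels were those of Cers6 (1.89 ± 0.506) and Acer3 (1.88 ± 0.474), whose ranges overlapped.

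**Figure D4:**
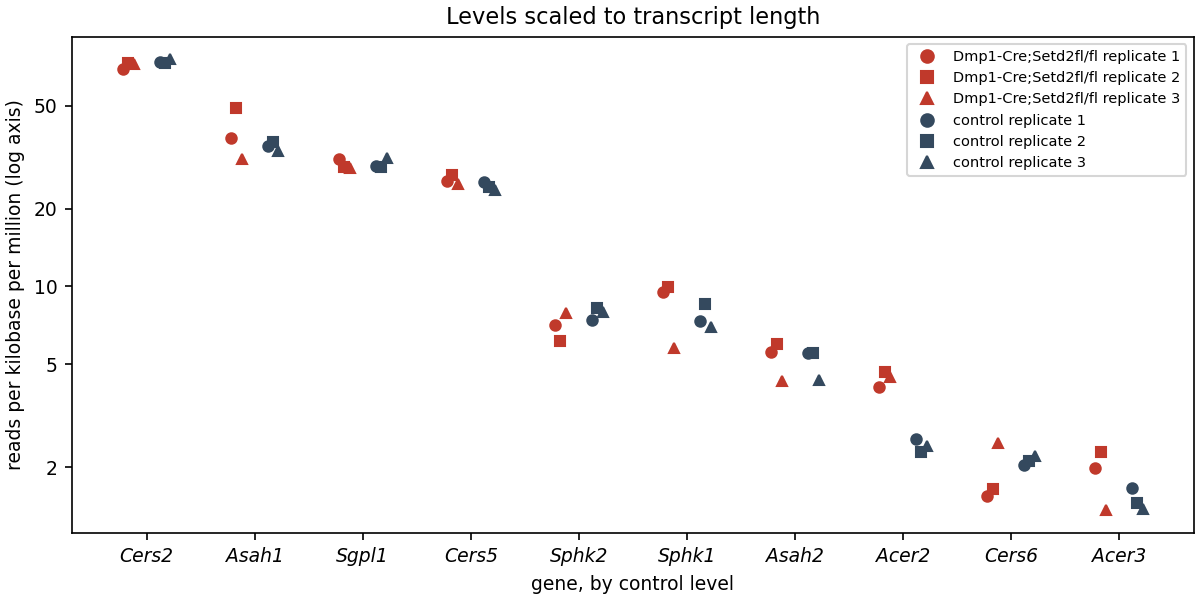
RPKM, reads per kilobase of transcript scaled to library size (vertical log axis), of the 10 enzyme genes, ordered by their mean in controls, with a point for each Dmp1-Cre;Setd2fl/fl library (red, left of each pair) and control library (dark blue, right), shaped by replicate. Levels run from about 1.50 for Acer3 to 74.3 for Cers2 in controls, and Acer2 moves towards Asah2 in Dmp1-Cre;Setd2fl/fl.

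Among the 4 ceramidases, the share of Acer2 in their summed level per length was 8.27%, 7.54% and 10.8% in Dmp1-Cre;Setd2fl/fl and 5.73%, 5.02% and 5.78% in controls. Asah1 held most of that sum in both groups, 77.0% ± 1.92 in Dmp1-Cre;Setd2fl/fl and 79.4% ± 1.19 in controls (SD, n = 3). So Acer2 was a minor ceramidase transcript in both groups. Its share in every Dmp1-Cre;Setd2fl/fl library was above that in every control, but it rests on the values Acer2 was chosen for and supports nothing. Among the kinases, Sphk1 held 57.2%, 61.9% and 42.2% of the sum in Dmp1-Cre;Setd2fl/fl and 49.9%, 50.8% and 46.6% in controls, which overlap. Among the 3 ceramide synthases followed here, Cers2 held 72.1% ± 0.386 in Dmp1-Cre;Setd2fl/fl and 73.7% ± 0.823 in controls.

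The tested genes whose profile over the 6 libraries was most like that of Acer2, by the root mean square difference between centred log2 CPM profiles, were Gm42600 (0.102), Cadm2 (0.129), Osmr (0.138), Mrps6 (0.142) and Rnaset2b (0.145). Osmr, the receptor subunit for oncostatin M, was at 6.03, 7.32 and 6.63 CPM in Dmp1-Cre;Setd2fl/fl and at 4.14, 4.21 and 3.23 CPM in controls. Mrps6, a protein of the mitochondrial ribosome, was at 12.8, 16.6 and 13.8 CPM in Dmp1-Cre;Setd2fl/fl and at 9.92, 9.16 and 8.90 CPM in controls. Both were higher in every Dmp1-Cre;Setd2fl/fl library than in any control, as the likeness to Acer2 demands. Gm42600 and Rnaset2b were under 1.2 CPM in every library, and reads of Rnaset2b may be shared with its near-identical copy Rnaset2a. The other 9 enzymes were less like Acer2, from 0.364 for Acer3 to 0.569 for Cers6.

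The rest of sphingolipid metabolism was covered by a list of 62 genes, of which 59 were in the table and 55 were tested. By the study's thresholds 1 of the 55 was called higher and 3 lower, and 51 passed in neither direction, where 1.10% of all genes were called higher and 2.71% lower. The median log2 fold change was 0.02, as over all genes, so the counts single out nothing about the list. After adjustment, none of the 55 (0) stayed under 0.05 in edgeR, with 5 at an unadjusted p under 0.05 (7.58% of all genes), and DESeq2 called B4galt6 and St3gal5. Without replicate 3 of both groups, edgeR called Col4a3bp higher and B4galt6, S1pr5, Smpd1 and St3gal5 lower at an adjusted p under 0.05. That fit called 389 of all genes higher and 749 lower. Without Dmp1-Cre;Setd2fl/fl replicate 3 alone, the same 4 were called lower and none higher, against 447 and 114 of all genes. With all libraries, the gene called higher by the study's thresholds was Sgpp1. It encodes a phosphatase of sphingosine-1-phosphate in the endoplasmic reticulum and so opposes the kinases. Sgpp1 was at 38.7, 61.6 and 36.0 CPM in Dmp1-Cre;Setd2fl/fl and at 30.2, 29.7 and 30.4 CPM in controls. The log2 fold change of Sgpp1 was 0.59 (standard error 0.21, edgeR adjusted p = 0.626), with replicate 2 of Dmp1-Cre;Setd2fl/fl well above the others. Without that library it was 0.31 and no longer called, and the call of Sgpp1 was also lost with the replicate block (0.55, adjusted p = 0.164), in voom and when any 1 of the controls was left out.

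The 3 genes called lower by the study's thresholds with all libraries were B4galt6, St3gal5 and Smpd1. B4galt6, a lactosylceramide synthase, was at 29.7, 30.5 and 42.5 CPM in Dmp1-Cre;Setd2fl/fl and at 61.4, 60.6 and 56.4 CPM in controls. Every Dmp1-Cre;Setd2fl/fl library was below every control, at a log2 fold change of -0.80 (standard error 0.16, edgeR adjusted p = 0.558, and 0.0404 with the replicate block). St3gal5, the sialyltransferase that makes the simplest ganglioside from lactosylceramide, was at 32.5, 39.7 and 45.9 CPM in Dmp1-Cre;Setd2fl/fl and at 62.8, 62.0 and 70.6 CPM in controls. St3gal5 again showed no overlap, at a log2 fold change of -0.73 (standard error 0.15, edgeR adjusted p = 0.558, and 0.0268 with the replicate block). Smpd1, the acid sphingomyelinase that releases ceramide in lysosomes, was at 71.6, 85.1 and 117 CPM in Dmp1-Cre;Setd2fl/fl and at 126, 132 and 156 CPM in controls. The groups did not overlap for Smpd1, at a log2 fold change of -0.60 (standard error 0.20, edgeR adjusted p = 0.626, and 0.0414 with the replicate block). The Smpd1 call was lost without Dmp1-Cre;Setd2fl/fl replicate 1 (-0.44), Dmp1-Cre;Setd2fl/fl replicate 2 (-0.55) or control replicate 3 (-0.50), whereas B4galt6 and St3gal5 stayed called in all 13 alternatives. All 3 genes were highest among Dmp1-Cre;Setd2fl/fl libraries in replicate 3, the library with the highest odontoblast marker sum of that group (36400 CPM, against 5790 and 3920 CPM). That library also had the highest tooth epithelium sum (49200 CPM, against 6940 and 2030 CPM). Its endothelium sum (Pecam1, Cdh5, Kdr, Tie1, Emcn) was highest as well, at 641 CPM against 249 and 269 CPM. Among controls, replicate 3 had the highest odontoblast sum (80600 CPM) and tooth epithelium sum (29700 CPM). There St3gal5 and Smpd1 were highest and B4galt6 lowest. The part of any of these cells in the levels of the 3 genes was not tested.

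The other genes of the pathway are given by role. Of 9 tested genes of sphingoid base synthesis, 0 passed the study's thresholds; for Kdsr, a reductase of that route, the fitted log2 change was 0.30 (standard error 0.16), and for Ormdl3, an inhibitor of its first enzyme, -0.17 (standard error 0.13). The remaining ceramide synthases had log2 fold changes of -0.08 (Cers4, standard error 0.18), -0.06 (Cers3, standard error 0.58) and -0.01 (Cers1, standard error 0.19, added after its values were seen to complete the family), with Cers3 at only 0.622 to 2.34 CPM in Dmp1-Cre;Setd2fl/fl and 0.947 to 2.27 CPM in controls. Of 10 tested genes of sphingomyelin metabolism only Smpd1 passed, and for Sgms1, a sphingomyelin synthase of the Golgi, the fitted log2 change was 0.24 (standard error 0.19). Of 16 tested glycosphingolipid genes, only B4galt6 and St3gal5 passed. Of 7 carriers 0 passed. Col4a3bp, the ceramide transfer protein that carries ceramide to the Golgi, was at 42.6, 47.5 and 35.9 CPM in Dmp1-Cre;Setd2fl/fl and at 29.7, 29.1 and 33.9 CPM in controls. Its groups did not overlap, and its log2 fold change of 0.44 (standard error 0.14, edgeR adjusted p = 0.625) was under the study's size threshold. For Gltp, a glycolipid carrier, it was 0.21 (standard error 0.13), and for Plpp3, a phosphatase of lipid phosphates at the cell surface, 0.24 (standard error 0.11, groups not overlapping).

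Of the receptors for sphingosine-1-phosphate, 4 were tested and 0 passed. S1pr3 was at 726, 787 and 630 CPM in Dmp1-Cre;Setd2fl/fl and at 612, 658 and 683 CPM in controls, overlapping ranges at a log2 fold change of 0.13 (standard error 0.13). S1pr5 was at 0.430, 0.159 and 5.32 CPM in Dmp1-Cre;Setd2fl/fl and at 5.84, 4.84 and 8.84 CPM in controls. Replicate 3 of Dmp1-Cre;Setd2fl/fl reached the control range for S1pr5, while replicates 1 and 2 held 9 and 3 counts against 92 to 156 in controls. The log2 fold change of S1pr5 was -1.73 (standard error 1.06, edgeR adjusted p = 0.708), and without Dmp1-Cre;Setd2fl/fl replicate 3 it was -4.41 (adjusted p = 0.00326).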

How the data were processed

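Bulk RNA-seq of mDPCs was analysed in 3 Dmp1-Cre;Setd2fl/fl and 3 control libraries. The authors deposited whole-number counts per gene, not normalized, made with HISAT2 and unstranded HTSeq counting. Bowtie2, DESeq2 and the build GRCm39 are named as well in the submitters' processing notes, without versions. The positions in the table match GRCm38.p6 (97.5% of 17168 protein-coding genes start or end within 1000 bases of RefSeq) and not GRCm39 (3.28% of 17148), so GRCm38 is used. The table's comparison columns (base mean, fold change, p-values, calls) hold the authors' own test and were not used.

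Genes were filtered with filterByExpr (minimum count 10), scaled by TMM and tested by the robust quasi-likelihood F test of edgeR 4.0.16 (R 4.3.3), with Benjamini-Hochberg adjustment over 16519 genes. The edgeR fit was tested on simulated data. Log2 CPM used a prior count of 2, and the common dispersion of 0.064 is a spread of 25.3% between libraries. Alternatives were DESeq2 1.42.0, limma 3.58.1 voom with quality weights, RLE size factors, no filter, at least 10 counts in every library, a replicate block, each library left out and replicate 3 left out of both groups. Replicate numbers come from the labels. Deviations of same-numbered libraries correlated over genes at 0.453, 0.465 and 0.663. Dmp1-Cre;Setd2fl/fl replicate 1 with control 2 (0.455) and 2 with control 1 (0.38) correlated about as well, so these values set apart mainly replicate 3. The fit reported is unpaired, and the replicate block is given beside it where it changed a call. P-values measure the spread between pools. The study's animal list gives fewer mice per genotype than 3 separate pools of 3 would need, so the pools may share mice and n = 3 may not be independent. No 2 libraries of the same group agreed within sampling noise.

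The 10 genes and all lists were chosen with earlier results of these data known. Named genes were the 10 members, the other sphingolipid genes past the study's thresholds, the 2 with the smallest unadjusted p in each role group, and the 5 genes most like Acer2. The listed genes Acer1, Enpp7 and Ugt8a were not analysed here, and Cert1 was read under its older symbol Col4a3bp.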

Additional observations from a re-analysis of the deposited data

How the results depend on the processing

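Acer2 was chosen for its values in these libraries, so its log2 fold change of 0.81 to 0.93 over the 13 alternatives is no evidence of stability. Acer2 was the 1 gene behind the count of members called higher at an adjusted p under 0.05, which was 0 in edgeR and 1 in DESeq2, in voom, with the replicate block and without replicate 3 of both groups, and 0 to 1 with each library left out. With the replicate block, which pairs the libraries, the log2 fold changes of the 10 genes were -0.19 (Cers6) to 0.87 (Acer2), and no call changed among the other 9. Directions near 0 reversed without Dmp1-Cre;Setd2fl/fl replicate 2 for Asah1 (-0.02), Asah2 (-0.05), Cers4 (0.06) and Cers3 (0.08), without Dmp1-Cre;Setd2fl/fl replicate 1 for Cers3 (0.29), and without control replicate 3 for Asah2 (-0.06), Sgpl1 (0.02) and Cers3 (0.48). With each library left out in turn these genes ranged from -0.02 to 0.31 (Asah1), -0.06 to 0.17 (Asah2), -0.05 to 0.02 (Sgpl1), -0.25 to 0.06 (Cers4) and -0.72 to 0.48 (Cers3). Sgpl1 also reversed in voom (0.07), without Dmp1-Cre;Setd2fl/fl replicate 3 (0.01) and without replicate 3 of both groups (0.05). The count of other sphingolipid genes called higher by the study's thresholds was 1 in edgeR, 0 in voom and with the replicate block, 2 without replicate 3 of both groups (Col4a3bp passed too, at 0.62) and 0 to 1 with each library left out. Over all genes, edgeR called 181 higher and 448 lower by the study's thresholds. Voom called 444 and 1101, the replicate block 339 and 722, no filter on low counts 338 higher, the fit without replicate 3 of both groups 750 and 1261, and the fits with each library left out 83 to 677 higher and 282 to 1161 lower. The extremes came without Dmp1-Cre;Setd2fl/fl replicate 2 (83 and 282) and replicate 3 (677 and 1161). At an adjusted p under 0.05 edgeR called 0 higher and 0 lower, DESeq2 24 and 117, voom 397 and 988, no filter 2 and 4, the replicate block 29 and 132, the fit without replicate 3 of both groups 389 and 749, and the fits with each library left out 0 to 114 higher and 0 to 447 lower. The cause was not tested. RLE size factors and the stricter filter moved none of these counts by over 1.5 times.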

Other observations

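Smpd3, the sphingomyelinase known from mice to be needed for mineralisation, was singled out after its values were seen. Smpd3 was at 142, 68.9 and 217 CPM in Dmp1-Cre;Setd2fl/fl and at 136, 151 and 321 CPM in controls. The groups overlapped, replicate 3 was the highest library of each, and the log2 fold change of Smpd3 was -0.51 (standard error 0.49), which passed no threshold.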
